A study of Rattus norvegicus with 24 samples.

Results

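The 12 rats given monocrotaline were ranked by the level of Fbxo32 in the medial gastrocnemius muscle, and the 6 rats with the highest level were set against the 6 with the lowest. They came from an RNA-seq series of 24 male Wistar rats, 6 in each of 4 groups: sedentary (Sed), exercised (Ex) and the same 2 training states after monocrotaline (CC-Sed, CC-Ex). All rats of CC-Sed and CC-Ex had received a single intraperitoneal injection of monocrotaline, a plant toxin that causes pulmonary hypertension and right heart failure with cardiac cachexia (CC), and all rats of Sed and Ex had received saline. Exercised rats ran regularly on a treadmill, and sedentary rats did not. Monocrotaline rats without right ventricular hypertrophy had been left out by the authors, so survival and this criterion limit the groups as a model. Each library held the left medial gastrocnemius of 1 animal, with no pooling, and all RNA had passed the authors' quality limit.

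Fbxo32 encodes atrogin-1, the muscle-specific substrate receptor of a ubiquitin ligase and a standard marker of muscle wasting. In atrophying muscle, FoxO transcription factors switch on atrogin-1 together with MuRF1 (Trim63), and proteins that these ligases tag with ubiquitin are degraded by the proteasome. Glucocorticoids, fasting, denervation, inactivity and inflammatory cytokines are known to raise this programme, and insulin and IGF-1 are known to restrain it.

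Because the rats were selected on a gene measured in these same libraries, all genes of the 12 rats count as used by the ranking. The comparison of the upper with the lower 6 rats is therefore given as a description, without a test. Tests are given for measures that did not use the ranking, namely CC against saline over all 24 rats and, in the 12 saline rats alone, the slope of each gene on the level of Fbxo32. Values are CPM, counts brought to a common library size with TMM, a scaling that corrects for differences in library composition. The table held 10850 genes besides Fbxo32. Total counts lay between 37816239 and 50350554 per rat and overlapped between the upper and lower rats. The deposited table held no count below 10, so a gene silent in any rat was not in it. The muscle identity was plain in the data, as 11 of 12 listed fibre markers were present and their summed level was between 135100 and 285300 CPM in the 12 monocrotaline rats.

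Fbxo32 itself, given only to show how the rats were chosen, was at 775, 1004, 1080, 1233, 1415 and 2755 CPM in the upper rats and at 86.0, 179, 321, 371, 391 and 549 CPM in the lower rats. The upper rats were CC-Ex 6, CC-Sed 2, CC-Sed 3, CC-Sed 1, CC-Sed 6 and CC-Ex 5, in that order. The lower rats were CC-Ex 4, CC-Sed 4, CC-Ex 2, CC-Sed 5, CC-Ex 1 and CC-Ex 3. The ranking was cut between CC-Ex 3 at 549 CPM and CC-Ex 6 at 775 CPM. Saline rats lay between 52.3 and 326 CPM with a median of 108 CPM, so that 3 of the lower rats lay inside the saline range and all upper rats lay above it. The upper set held 4 CC-Sed and 2 CC-Ex rats and the lower set 2 CC-Sed and 4 CC-Ex rats. Training state was thus uneven between the sets, and for many lists and some genes differences within CC-Sed and within CC-Ex are given beside the pooled ones. Within CC-Ex the upper rats were only CC-Ex 5 and CC-Ex 6, so CC-Ex 5 weighs heavily in those differences.

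**Figure D1:**
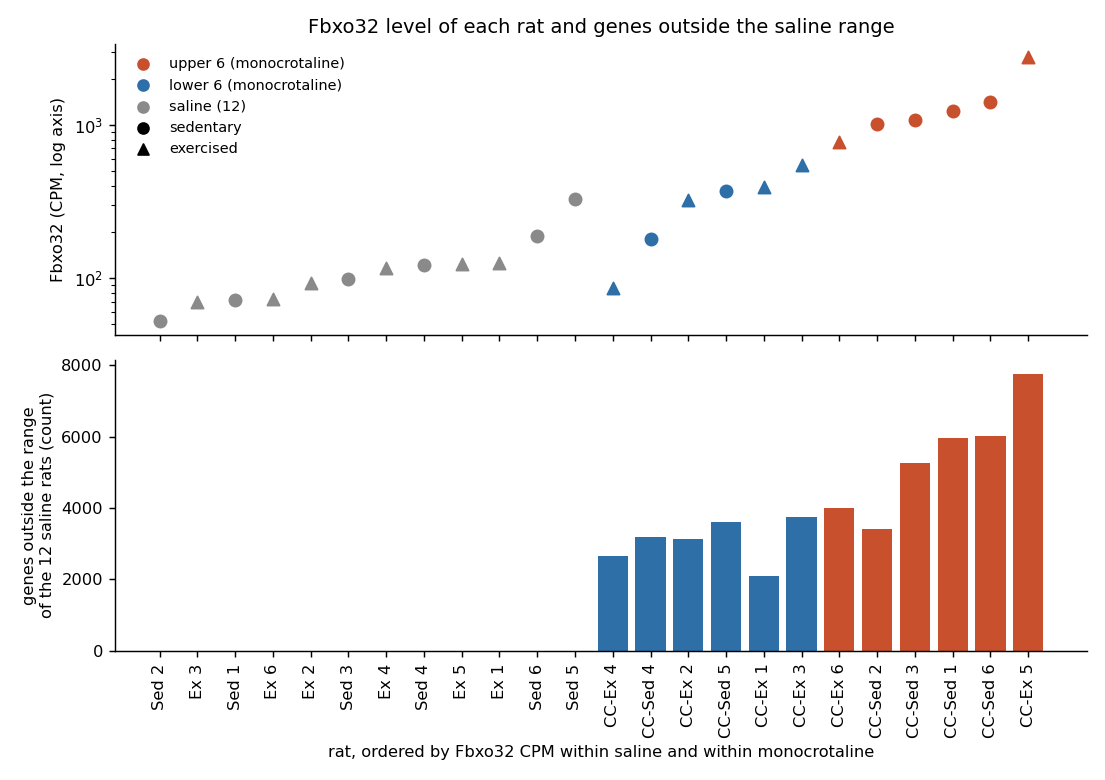
Fbxo32 in CPM on a log axis for each of the 24 rats (top; circles sedentary, triangles exercised) and, for the 12 monocrotaline rats, the number of the 10850 other genes lying outside the range of the 12 saline rats (bottom). The upper rats held between 3398 and 7763 such genes and the lower rats between 2103 and 3759.

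The ranking by this 1 gene separated muscles that differed widely from saline from muscles that differed less. In the lower rats a median of 3157.5 genes lay outside the range of the 12 saline rats, with a lowest count of 2103 (19.4% of genes) and a highest of 3759 (34.6%). In the upper rats the median was 5614.5 genes, the lowest 3398 (31.3%) and the highest 7763 (71.5%). A further saline rat would also have some genes outside this range, and that number was not measured, so the counts have no baseline. The sets overlapped, since CC-Sed 2 of the upper set had fewer such genes than CC-Sed 5 and CC-Ex 3 of the lower set. CC-Ex 5 had both the highest Fbxo32 and the most genes outside the saline range.

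For 323 genes all 6 upper rats were above all 6 lower rats (2.98% of all genes), and for 146 genes all 6 were below (1.35%). Counts of non-overlapping genes in the lists below are to be read against these shares. The median difference over all genes was near 0. Scaling by total counts in place of TMM gave the same ranking of rats but turned this split to 61 genes above and 256 below, so the balance between the directions depended on the scaling. The 10 most highly expressed genes took 24.8 to 31.7% of the counts in the upper rats and 27.7 to 33.1% in the lower rats.

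The 10 genes with the largest non-overlapping increase towards the upper rats had varied functions. Zfand2a, which encodes a proteasome-associated zinc-finger protein induced by proteotoxic stress, was at 18.1, 79.9 and 185 CPM (lowest, median and highest) in the upper rats, at 7.74, 11.8 and 13.4 CPM in the lower rats and at 7.62, 10.4 and 67.9 CPM in the saline rats. Its mean was 5.42-fold higher in the upper rats. All 6 lower rats lay within the saline range, while 3 upper rats exceeded every saline rat.

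Cdkn1a, encoding the cell-cycle inhibitor p21, was at 11.3, 23.6 and 51.3 CPM in the upper rats, against 2.50, 4.74 and 8.13 CPM in the lower rats and 1.47, 2.97 and 29.4 CPM with saline. The sets differed 4.68-fold, yet a single saline rat overlapped the upper range and only 1 upper rat lay above every saline rat. Ddi2, encoding the protease that activates the proteasome regulator NFE2L1, was at 43.1, 81.6 and 304 CPM in the upper rats and 11.2, 23.8 and 29.8 CPM in the lower rats, with saline rats between 11.46 and 39.04 CPM. For this gene every upper rat exceeded every saline rat, and no lower rat did.

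Insig1, whose product retains the sterol-regulatory factors in the endoplasmic reticulum, was 3.98-fold higher in the upper rats, at 35.3, 78.0 and 410 CPM against 15.7, 22.6 and 33.8 CPM. Cebpd, a transcription factor induced by glucocorticoids and cytokines, was at 68.5, 116 and 196 CPM against 10.2, 42.6 and 67.8 CPM, with saline rats at 6.53 to 25.2 CPM. It was above the saline range in all 6 upper rats and in 4 lower rats. Pnpla7, a lysophospholipase gene, was 3.06-fold higher in the upper rats (216, 431 and 842 CPM against 77.6, 147 and 214 CPM). Mindy1, encoding a deubiquitinase that trims ubiquitin chains, was also 3.06-fold higher (20.9, 45.1 and 143 CPM against 11.0, 16.0 and 18.2 CPM).

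The remaining 3 genes of this group were Tmem140 (4.67-fold), Ogfrl1 (3.09-fold) and Kctd20 (2.94-fold). Tmem140 was 3.51 higher on the log2 scale within CC-Ex and 1.29 higher within CC-Sed. Since these genes were picked for sets that do not overlap, their direction within any part of the rats was fixed by that choice.

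The 10 genes with the largest non-overlapping decrease towards the upper rats had varied functions. Oxct1, encoding the enzyme that commits ketone bodies to oxidation, was at 37.5, 164 and 265 CPM in the upper rats, 318, 442 and 801 CPM in the lower rats and 224, 354 and 762 CPM with saline. The lower rats matched the saline range except for 1 rat above it, and 5 upper rats were below every saline rat. Perm1, a muscle regulator of mitochondrial genes that acts with PGC-1 and ERR, was at 18.7, 71.5 and 92.0 CPM against 105, 157 and 415 CPM, with a saline median of 164 CPM. Trim7, encoding a ligase that binds glycogenin, was below the saline range in all 6 upper rats, which were at 0.680, 4.67 and 10.6 CPM. The lower rats were at 11.7, 16.3 and 21.6 CPM and the saline rats at 18.2, 21.3 and 30.2 CPM, so 3 lower rats were also below saline.

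Col15a1, a basement-membrane collagen gene, showed the same order, with 4.46, 8.91 and 13.9 CPM in the upper rats, 15.2, 28.9 and 47.3 CPM in the lower rats and 32.8, 50.7 and 87.2 CPM with saline. Esr1, the oestrogen receptor alpha gene, was at 0.516, 2.03 and 3.79 CPM in the upper rats and 4.10, 5.29 and 7.73 CPM in the lower rats. All 6 upper rats and 1 lower rat were below every saline rat. Myocd, encoding the serum response factor coactivator myocardin, had the largest difference (4.17-fold lower in the upper rats), but at 0.281 to 0.936 CPM against 1.08 to 11.7 CPM it was a weakly expressed gene whose upper rats mostly remained within the saline range of 0.594 to 6.84 CPM.

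The other genes of this group were Cmss1 (3.34-fold lower in the upper rats), Pnma8b (3.09-fold), Grip2 (2.85-fold) and Tmem65 (2.76-fold), all with a median of at most 2.65 CPM in the upper rats.

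**Figure D2:**
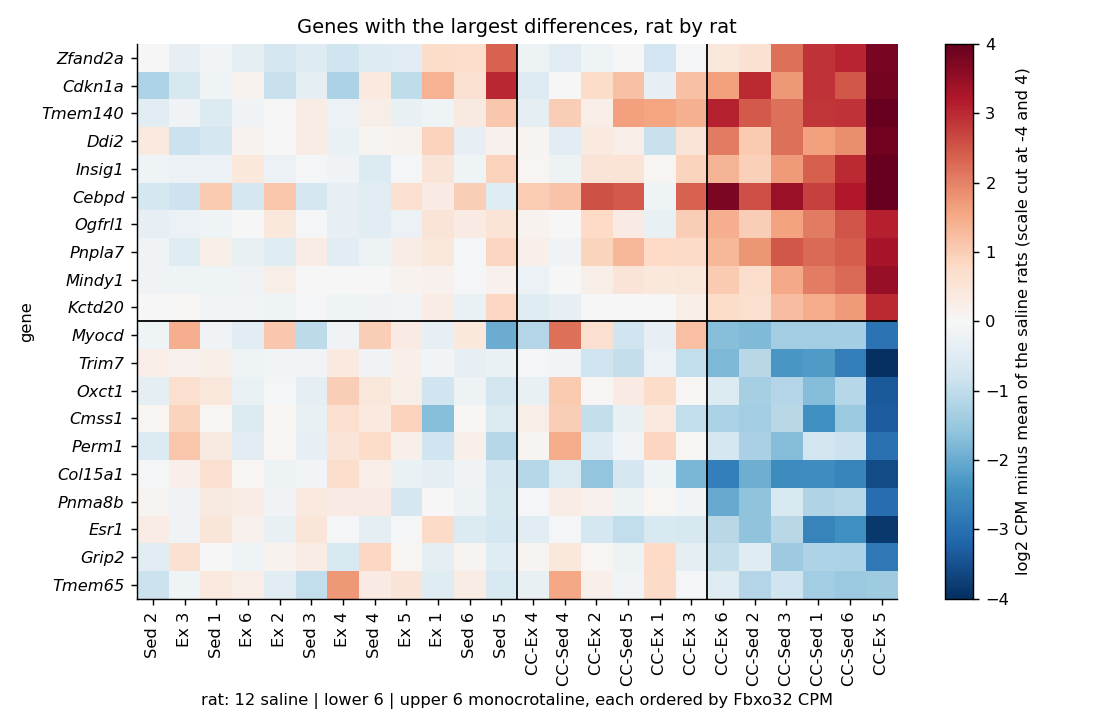
Log2 CPM minus the mean of the 12 saline rats for the 10 genes with the largest non-overlapping increase (top) and the 10 with the largest decrease (bottom) towards the upper rats; columns are the 24 rats ordered by Fbxo32 within the saline, lower and upper sets, red is above and blue below the saline mean. The strongest colours are in CC-Ex 5, and Sed 5, the saline rat with the highest Fbxo32, shows Zfand2a and Cdkn1a in red.

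Proteasome genes were higher in the upper rats in most members. The proteasome consists of a catalytic core (Psma and Psmb genes), a regulatory cap of ATPases (Psmc) and other subunits (Psmd), alternative activators (Psme), an inhibitor (Psmf1) and assembly chaperones (Psmg). Of 42 genes, 11 were higher in all upper than in all lower rats (26.2%) and none was lower, and 37 had a positive difference. Over all 10850 genes, 2.98% were higher in this way and 5397 had a positive difference. Without CC-Ex 2 the 11 became 27, and without CC-Ex 6 they became 20. Their median difference was 0.71 on the log2 scale, against 0 over all genes. It was 0.74 within CC-Sed, 0.72 within CC-Ex and 0.59 without CC-Ex 5. The value within CC-Ex leaned on CC-Ex 5, whose mean level relative to saline was 1.141. The other upper CC-Ex rat, CC-Ex 6, was at 0.222, close to CC-Ex 2 of the lower set at 0.202. Scaled by total counts, 37 genes again had a positive difference, but only 1 did not overlap.

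The mean level of the 42 genes relative to saline was 0.22, 0.63 and 1.14 (lowest, median and highest, log2) in the upper rats and -0.11, 0.03 and 0.20 in the lower rats. The lower rats thus lay inside the saline range of -0.12 to 0.40, in which Sed 5 was the highest. The lowest upper rats, CC-Ex 6 at 0.222 and CC-Sed 2 at 0.238, also lay inside it, and the level of the other 4 upper rats was from 0.441 to 1.14.

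Among the members, Psme4, which encodes the activator PA200, was at 541, 799 and 2096 CPM in the upper rats and 266, 374 and 472 CPM in the lower rats, and it exceeded all saline rats (214 to 443 CPM) in every upper rat. Psmc4, an ATPase of the cap, was at 78.8, 142 and 252 CPM against 64.4, 70.8 and 77.2 CPM. Core subunits behaved alike, with Psma2 at 49.97, 83.2 and 154 CPM against 37.3, 43.3 and 46.4 CPM and Psmb2 at 44.9, 73.2 and 134 CPM against 35.5, 40.2 and 43.3 CPM. For these 3 genes the lower rats stayed near the saline medians of 66.5, 43.8 and 39.8 CPM. Psmd8, a cap subunit, had the largest difference of all members (2.50-fold), but its sets overlapped, at 79.4 to 393 CPM against 58.5 to 87.4 CPM.

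The 5 members with a negative difference included the weakly expressed genes Psmb8 and Psmb9, which encode subunits of the interferon-inducible immunoproteasome. Psmb8 was at 1.03, 2.33 and 3.48 CPM in the upper rats and 2.41, 2.87 and 4.31 CPM in the lower rats, and Psmb9 at 1.31, 2.21 and 3.15 CPM against 1.86, 2.72 and 3.47 CPM. The activator genes Psme1 and Psme2 differed by -0.27 and -0.07 on the log2 scale and the chaperone gene Psmg2 by -0.03. The sets overlapped for all 5.

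**Figure D3:**
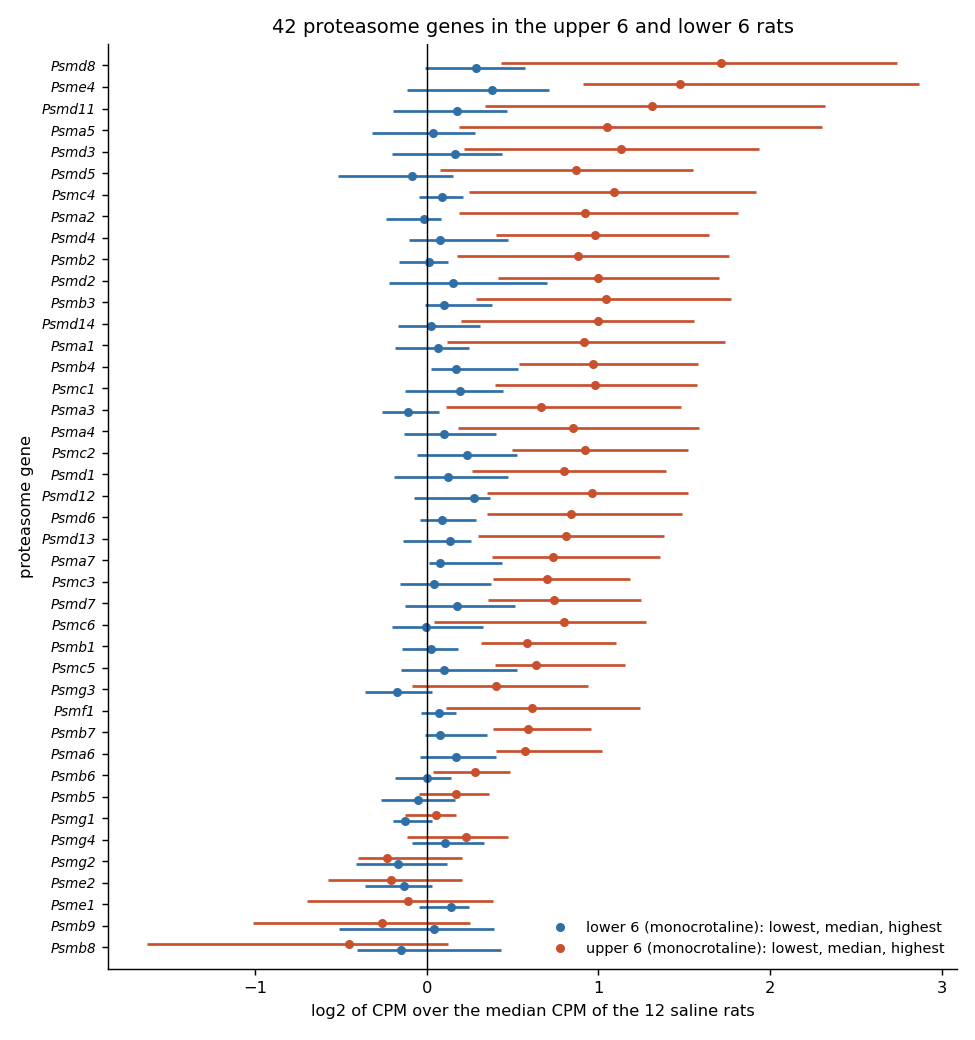
Each of the 42 proteasome genes in the upper (orange) and lower (blue) 6 monocrotaline rats; the point is the median and the line runs from the lowest to the highest rat, as log2 of the CPM over the median CPM of the 12 saline rats (0). Blue medians cluster near 0, while orange medians lie to the right for all but the lowest rows, where Psmb8 and Psmb9 are found.

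Genes of the proteasome are known targets of NFE2L1, which binds antioxidant-response elements, and promoters of members that moved together are shown here to let the letters be seen. RefSeq promoters of rat build GRCr8, 300 bases around the start site, were searched for TGACNNNGC on both strands. The motif was present in 7 of 38 proteasome promoters that could be matched by symbol (18.4%), in 3 of 10 of those with non-overlapping sets and in 15.0% of the promoters of all genes in the table, so it was found at about the general rate. The windows below carry the match in capitals, read 5′ to 3′ on the strand of the match.
Psmb2: cccgcgccaaTGACCGGGCggtcgcatat
Psma3: ctcatggtgcTGACCCGGCaggccacaga
Psme4: ggcgaggaggTGACCCAGCggctttctcc
Adrm1: cgctcccctaTGACACAGCaacaataggg
Zfand2a: tcaccaTGACTCAGCctaggccaga
They lie at chr5:144254980-144255008 (Psmb2), chr6:95219727-95219755 (Psma3), chr14:108706578-108706606 (Psme4), chr3:187642837-187642865 (Adrm1) and chr12:20275200-20275224 (Zfand2a), all upstream of genes on the plus strand. The matches in Psma3 and Psme4 are on the minus strand. A match describes the letters only and does not show binding.

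Partners of the proteasome were likewise higher in the upper rats. A list of 17 genes of NFE2L1 processing and ubiquitin shuttles, written after values had been seen, had a median difference of 0.65, with 5 genes non-overlapping and higher (Zfand2a, Ddi2, Zfand5, Adrm1 and Ufd1). These were 29.4% of the list, against 2.98% of all genes. As the list was written after values had been seen, this share only describes it. Zfand5, encoding a zinc-finger activator of the proteasome, was at 276, 418 and 1215 CPM in the upper rats, 151, 176 and 239 CPM in the lower rats and 122, 154 and 199 CPM with saline. Adrm1, the ubiquitin receptor of the cap, was at 90.6, 135 and 221 CPM against 65.7, 77.8 and 89.0 CPM. Nfe2l1 itself was 1.51-fold higher, and its sets overlapped (412 to 804 CPM against 268 to 426 CPM).

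Genes of ribosome biogenesis were higher in the upper rats to a similar extent. This second list was also written after values had been seen, so its counts only describe how far the pattern ran. All 62 of its measured genes had a positive difference, against 5397 of all 10850 genes, and 20 did not overlap (32.3%, against 2.98% of all genes). The median difference was 0.62 (0.54 within CC-Sed, 0.78 within CC-Ex and 0.48 without CC-Ex 5). Scaled by total counts, 2 of these genes did not overlap, and 31 did not without CC-Ex 6. The mean level of the list relative to saline was 0.16, 0.62 and 1.44 in the upper rats and -0.13, -0.01 and 0.08 in the lower rats, with no overlap between the sets. The saline rats reached 0.25, so CC-Ex 6 at 0.158 and CC-Sed 2 at 0.214 of the upper set lay inside the saline range. Ppan, a factor for assembly of the large ribosomal subunit, was at 10.7, 27.0 and 89.7 CPM against 7.67, 8.39 and 10.4 CPM, the lower rats being close to the saline median of 8.19 CPM. Polr1a, the largest subunit of RNA polymerase I, was 2.32-fold higher, at 34.1, 65.1 and 146 CPM against 22.7, 27.2 and 31.6 CPM. The 70 genes of cytosolic ribosomal proteins differed less, with a median of 0.17 and no non-overlapping gene.

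The closest relatives of Fbxo32 in function did not all follow it. Among 20 further atrophy-related ubiquitin ligase and associated genes, 13 had a positive difference, and the median difference was 0.29. Zfand5 did not overlap and was higher, which is 5% of the list, near the 2.98% of all genes. Trim63 was at 348, 1891 and 4846 CPM in the upper rats, 190, 452 and 976 CPM in the lower rats and 157, 202 and 640 CPM with saline. It was 3.97-fold higher but overlapped, and the difference was 0.89 within CC-Sed and 2.97 within CC-Ex. Fbxo30, which encodes the ligase MUSA1, was 2.83-fold higher with overlap (14.7, 43.4 and 123 CPM against 9.53, 13.7 and 20.6 CPM). Trim55, a titin-binding relative of MuRF1, was on the other side with a log2 difference of -0.52.

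FoxO factors and their targets had a higher median difference than the proteasome (0.80 over 30 genes). Of the 30, Cdkn1a and Bnip3l were non-overlapping and higher (6.67%, against 2.98% of all genes). The list differed by 0.50 within CC-Sed and 1.41 within CC-Ex. Unlike the proteasome, it was already above saline in most lower rats, at -0.04, 0.51 and 0.99 relative to saline, against 0.73, 1.24 and 1.93 in the upper rats and at most 0.20 in the saline rats. Foxo1 was at 35.2, 107 and 149 CPM in the upper rats, 12.9, 18.1 and 55.3 CPM in the lower rats and 9.63, 11.6 and 17.2 CPM with saline. All 6 upper and 3 lower rats exceeded every saline rat. Sesn1, a stress-induced inhibitor of mTORC1, was 3.66-fold higher, at 175, 352 and 724 CPM against 53.2, 84.5 and 201 CPM.

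Autophagy and lysosome genes showed a smaller shift (median 0.22 over 48 genes). Of these, 6 were non-overlapping and higher (12.5%, against 2.98% of all genes). Ulk1, the kinase that initiates autophagy, was at 105, 142 and 286 CPM against 47.3, 71.5 and 102 CPM and did not overlap. Map1lc3b, which encodes the autophagosome protein LC3B, was 3.10-fold higher, at 95.3, 223 and 898 CPM against 56.1, 79.7 and 115 CPM. Ctsl, the lysosomal protease cathepsin L, was 3.04-fold higher, at 272, 537 and 738 CPM against 94.5, 164 and 290 CPM, and its sets overlapped slightly.

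Of 22 glucocorticoid-responsive genes, Cdkn1a and Cebpd were non-overlapping and higher (9.09%, against 2.98% of all genes). The 22 genes had a median difference of 0.73, but of 0.29 within CC-Sed and 1.21 within CC-Ex. Their level relative to saline was 1.11, 1.75 and 2.43 in the upper rats and -0.05, 0.94 and 1.40 in the lower rats, so 5 of 6 lower rats were above the highest saline rat at 0.39. Mt2A, a metallothionein gene, showed the largest difference of all genes whose sets overlapped (4.37, log2), with 29.5, 104 and 1295 CPM in the upper rats, 1.59, 9.79 and 34.7 CPM in the lower rats and 0.587, 1.94 and 5.39 CPM with saline. Metallothionein genes are close copies of each other, so reads may have been split between them.

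Ddit4, an mTORC1 inhibitor induced by glucocorticoids, was 2.90-fold higher with a difference of 0.30 within CC-Sed and 2.88 within CC-Ex, and 5 lower rats were above the saline range. Over the 36 genes of insulin, IGF-1 and mTOR signalling the median difference was 0.13. Its only non-overlapping member was Igf1, which encodes the growth factor itself and was at 2.16, 2.57 and 3.01 CPM in the upper rats, 3.62, 4.41 and 4.78 CPM in the lower rats and 4.29, 6.67 and 10.6 CPM with saline. The activin and myostatin list had a median of 0.04 over 25 genes. Mstn, encoding myostatin, was at 2.23, 35.5 and 71.6 CPM in the upper and 11.7, 21.6 and 36.8 CPM in the lower rats.

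**Figure D4:**
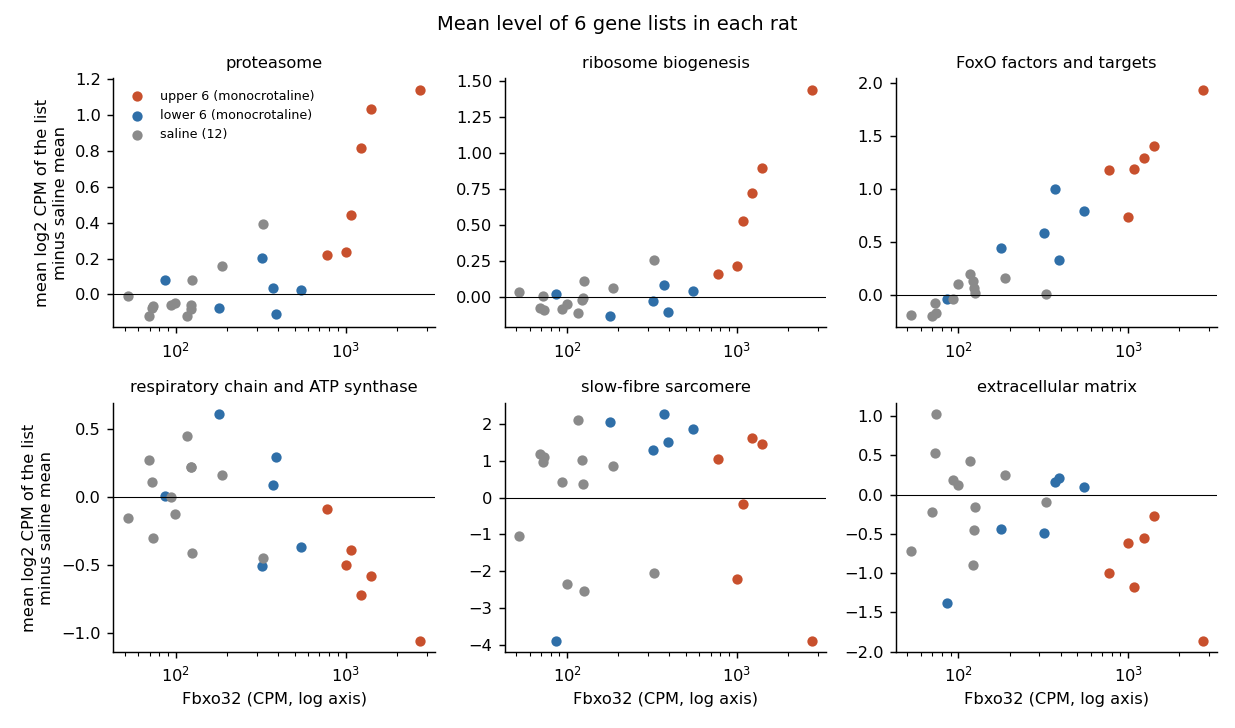
Mean log2 CPM of 6 gene lists in each rat relative to the saline mean (vertical axes) against Fbxo32 in CPM on a log axis; grey is saline, blue the lower and orange the upper 6 monocrotaline rats. Proteasome and ribosome biogenesis stay near 0 in the lower and most saline rats. Levels in the upper rats lie above those of the lower rats, up to 1.14 and 1.44 in CC-Ex 5. The saline rat Sed 5, at 0.395 and 0.255, lies above CC-Ex 6 (0.222 and 0.158) and CC-Sed 2 (0.238 and 0.214) of the upper set. Slow-fibre genes scatter from -3.88 to 2.25 across the upper and lower sets.

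Oxidative metabolism pointed the other way. Of 75 genes of the respiratory chain and ATP synthase, all but 1 had a negative difference, while 5397 of all 10850 genes had a positive one. The median was -0.56 (-0.87 within CC-Sed, -0.39 within CC-Ex and -0.47 without CC-Ex 5). None of the 75 was non-overlapping, against 1.35% of all genes that were lower in this way. The level of the list relative to saline was -1.06, -0.54 and -0.09 in the upper rats and -0.51, 0.05 and 0.61 in the lower rats, against a saline range of -0.45 to 0.45. Within CC-Ex the upper rats differed widely, with CC-Ex 5 at -1.058 and CC-Ex 6 at -0.086. CC-Ex 6 lay above CC-Ex 2 at -0.506 and CC-Ex 3 at -0.370 of the lower set, and below CC-Ex 1 at 0.298 and CC-Ex 4 at 0.006. Cyc1, encoding cytochrome c1 of complex III, was at 114, 204 and 314 CPM in the upper rats, 220, 408 and 667 CPM in the lower rats and 275, 418 and 614 CPM with saline. Ndufb5, a complex I subunit gene, was at 47.2, 92.5 and 152 CPM against 98.6, 194 and 323 CPM. For both genes 5 upper rats and 2 lower rats were below every saline rat.

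Among the regulators, Ppargc1b, encoding PGC-1 beta, was 4.35-fold lower in the upper rats (0.352, 2.17 and 8.49 CPM against 5.16, 10.9 and 12.8 CPM), with overlap. Ppargc1a, encoding PGC-1 alpha, was at 3.26, 16.1 and 38.3 CPM against 14.3, 37.4 and 68.1 CPM, and the saline rats at 11.0 to 25.1 CPM overlapped both sets. Over 35 genes of fatty acid oxidation and ketone use the median difference was -0.26 (-0.54 within CC-Sed and -0.28 within CC-Ex). Oxct1 was the only non-overlapping member. Pdk4, the kinase that blocks pyruvate oxidation, was at 663, 1340 and 1848 CPM in the upper rats and 71.4, 877 and 1738 CPM in the lower rats, with a difference of -0.13 within CC-Sed and 2.22 within CC-Ex. The 30 genes of lipid uptake, storage and lipolysis had a median of -0.16 (-0.44 within CC-Sed and -0.22 within CC-Ex). The 39 of glycolysis and glycogen had a median of -0.24 (-0.2 within CC-Sed and -0.16 within CC-Ex). Pfkfb3, which makes the activator of phosphofructokinase, stood apart from the other glycolysis genes at 240, 497 and 999 CPM against 46.4, 66.5 and 250 CPM.

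Of 32 genes of amino acid metabolism, with a median of 0.08, Oat alone did not overlap, and 2 transporters had the largest differences. Slc7a8, a carrier of large neutral amino acids, was 5.04-fold higher, at 27.4, 117 and 294 CPM against 14.8, 22.2 and 34.6 CPM. Slc7a6, a carrier of basic amino acids, was 4.21-fold higher, with a difference of 1.06 within CC-Sed and 3.35 within CC-Ex. All upper rats exceeded the saline range for both genes, as did 3 lower rats for Slc7a8 and 4 for Slc7a6.

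Fibre-type and connective tissue genes varied widely within both sets. The 11 slow-fibre sarcomere genes had a median difference of -1.30, but each set held a rat near -3.88 (CC-Ex 5 in the upper and CC-Ex 4 in the lower set) and rats above 1.28. The median was -2.09 within CC-Sed, -1.67 within CC-Ex and -0.62 without CC-Ex 5. Myl3, a slow myosin light chain gene, ran from 3.75 to 1581 CPM in the upper and from 16.8 to 2933 CPM in the lower rats. The 18 fast-fibre sarcomere and calcium genes had a median difference of 0.00, and Myh4, a fast myosin gene, was at 42050, 105000 and 119900 CPM against 45440, 70450 and 130300 CPM. Myosin genes are similar in sequence, so reads may have been divided between them.

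Extracellular matrix genes were lower in the upper rats, with a median of -0.49 over 43 genes, 3 of them with a positive difference and Col15a1 non-overlapping. The difference was -0.45 within CC-Sed and -1.01 within CC-Ex. Markers of fibroblasts moved alongside, all 11 being present, but Dcn, Lum, Col1a1 and Col3a1 were in both lists. The median difference of the fibroblast markers was -0.86 (-0.48 without CC-Ex 5). Their summed level was between 700 and 2012 CPM in the upper rats, 652 and 2804 CPM in the lower rats and 697 and 5069 CPM with saline. In bulk muscle, fewer cells of a type and less RNA per cell cannot be told apart.

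Summed levels of the other cell type markers overlapped between the sets, although the mean log2 level of 6 satellite cell markers relative to saline did not, at -0.84 to -0.19 in the upper and -0.07 to 0.38 in the lower rats. None of the 6 satellite cell, 8 smooth muscle and pericyte and 4 Schwann cell markers had a positive difference, and their medians were -0.47, -0.46 and -0.46. Notch3 was in both the satellite cell list and the smooth muscle and pericyte list. Among 11 endothelial markers, with a median of -0.23, Flt1 was non-overlapping and lower in the upper rats. The summed level of 16 of 18 macrophage and leukocyte markers was between 71.4 and 272 CPM in the upper and 95.4 and 429 CPM in the lower rats, with a median difference of 0.12 within CC-Sed and -1.33 within CC-Ex. Haemoglobin transcripts (3 of 8 erythroid markers) summed to between 33.8 and 418 CPM in the upper rats and 147 and 960 CPM in the lower rats, a median difference of -1.76, and the alpha-globin genes are near-identical copies. Summed levels were 350 to 469 against 345 to 582 CPM for 11 of 13 endothelial markers, 115 to 212 against 178 to 314 CPM for 8 of 9 smooth muscle and pericyte markers, and 38.2 to 57.9 against 56.7 to 80.4 CPM for 6 of 8 satellite cell markers. Those of 4 of 9 adipocyte markers were 614 to 858 against 471 to 949 CPM, and those of 4 of 8 Schwann cell markers 16.8 to 37.6 against 20.1 to 71.5 CPM. Markers not in the table cannot be read as 0. The part of cell composition in the differences above was not tested.

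The other lists had medians between -0.06 and 0.27, each with at most 1 non-overlapping gene, except for Rxrb (higher) and Perm1 (lower) in the last. They were denervation and neuromuscular junction (-0.06, 24 genes), immediate-early genes (0.25, 20 genes), clock (0.25, 19 genes), IL-6, STAT3 and NF-kB (0.15, 29 genes), metallothionein and antioxidant (0.27, 29 genes), ATF4 and endoplasmic reticulum stress (0.22, 20 genes), heat shock (0.02, 22 genes), ubiquitin supply and deubiquitinases (0.18, 16 genes) and regulators of the PPAR, ERR and PGC-1 families (0.02, 19 genes). Within CC-Sed and within CC-Ex some medians differed from these pooled ones. They were -0.52 and 0.09 for the PPAR, ERR and PGC-1 regulators and -0.42 and 0.13 for heat shock. For immediate-early genes they were -0.06 and 0.32, and for denervation and neuromuscular junction 0.02 and -0.39. Il6st, the shared receptor chain of the IL-6 family, did not overlap, at 91.5, 115 and 280 CPM in the upper rats and 57.8, 69.6 and 82.9 CPM in the lower rats. The clock gene Nfil3 likewise did not overlap (81.1, 86.7 and 185 CPM against 27.5, 52.5 and 74.9 CPM). Ddit3, encoding the stress factor CHOP, was lower in all upper rats, at 2.56, 5.46 and 7.80 CPM against 8.65, 10.3 and 27.4 CPM.

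The comparison of all CC with all saline rats asks whether these genes differed between the labelled groups, and does not use the order of rats within them. With edgeR's quasi-likelihood test and Benjamini-Hochberg adjustment over 10851 genes, 1866 genes were higher (17.2%) and 1151 lower (10.6%) in CC. Under upper-quartile scaling the split was 1324 higher and 1605 lower. The same 12 monocrotaline rats enter this comparison and the ranking, so values stand side by side and are not independent evidence.

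Of the 42 proteasome genes, 26 rose in CC and 1 fell (Psme2, Log2FC -0.22). The number that rose was 16 without CC-Sed 6, 17 without CC-Sed 1, 17 without CC-Ex 5 and 21 under upper-quartile scaling. Over all genes 1866 rose, with 1307 to 2237 when 1 rat was left out and 1324 under upper-quartile scaling. The number of proteasome genes that rose was 0 when CC-Sed was compared with Sed alone or CC-Ex with Ex alone. In those comparisons 467 and 95 of all 10851 genes rose. The median Log2FC of the proteasome genes was 0.48 and 0.5 in those comparisons, against 0.48 with all rats. Psme4 rose by a Log2FC of 1.12 ± 0.27 (SE, adjusted p = 0.00612 by edgeR) and Psmd8 by 1.1 ± 0.30 (adjusted p = 0.0118). Glucocorticoid-responsive genes (17 of 22 rose, none fell) and FoxO factors and targets (23 of 30 rose, 2 fell) were also called. With CC-Sed against Sed alone, 12 glucocorticoid-responsive and 14 FoxO genes rose, and with CC-Ex against Ex alone 6 and 8. Foxo1 rose by 2.43 ± 0.37 (adjusted p = 0.000292), Trim63 by 2.40 ± 0.47 (adjusted p = 0.00152) and Cebpd by 2.63 ± 0.41 (adjusted p = 0.000321).

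The named genes were picked for their levels in the same monocrotaline rats, which favours a call in the same direction in CC. Of the 323 non-overlapping higher genes 61% rose in CC, against 17.2% of all genes. Of the 146 lower ones 35.6% fell, against 10.6% of all genes. All 10 genes with the largest increase towards the upper rats also rose in CC as a whole by edgeR. They ran from Tmem140 with a Log2FC of 2.75 ± 0.49 (adjusted p = 0.000847) to Kctd20 with 1.04 ± 0.33 (adjusted p = 0.0242). The calls of Zfand2a (Log2FC 1.54, adjusted p = 0.0389) and Cdkn1a (1.53, adjusted p = 0.0400) were close to the threshold and were each lost under 17 alternatives. Of the 10 genes with the largest decrease, Col15a1 (Log2FC -1.55 ± 0.32, adjusted p = 0.00213), Esr1 (-1.14 ± 0.30, adjusted p = 0.0102) and Trim7 (-1.12 ± 0.34, adjusted p = 0.0198) fell in CC. The other 7 did not pass, among them Oxct1 (-0.32, adjusted p = 0.499), Perm1 (-0.27, adjusted p = 0.603) and Myocd (-0.22, adjusted p = 0.761).

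Respiratory chain genes were called in CC as a whole in only 1 of 75 cases, and their median Log2FC was -0.20. This count rested on single rats, as 25 of them fell without CC-Sed 4 and 5 without CC-Ex 1. Over all genes 1151 fell, and leaving out 1 rat gave between 890 and 1595. Extracellular matrix genes fell in 14 of 43 cases (9 without Ex 6) and rose in 2. Autophagy and lysosome genes rose in 22 of 48 cases and fell in 2. With CC-Sed against Sed alone 5 autophagy genes rose (467 of all genes), and with CC-Ex against Ex alone 1 (95 of all genes). For the interaction of monocrotaline with training, edgeR called 0 of the 10850 genes at an adjusted p under 0.05, with 154 at an unadjusted p under 0.05, and DESeq2 was not run on it.

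The 12 saline rats had no part in the ranking and also differed in Fbxo32, from 52.3 to 326 CPM. In these rats the slope of each gene on log2 CPM of Fbxo32 was fitted with training state as a term. No gene passed an adjusted p of 0.05 with edgeR (0%, lowest adjusted p 0.275). At an unadjusted p under 0.05 there were 609 genes, 399 with a positive slope (3.68%) and 210 with a negative slope (1.94%). DESeq2 called 23 genes positive and 4 negative after adjustment.

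Of the 323 genes that were non-overlapping and higher in the upper monocrotaline rats, 277 had a positive slope in saline rats (85.8%), against 46.4% of all genes. Of the 146 that were lower, 134 had a negative slope (91.8%). These shares rested in large part on Sed 5, the saline rat with the highest Fbxo32. Without it, Fbxo32 ran only to 187 CPM, and the shares were 60.7% and 65.8%, against 49.2% of all genes with a positive slope.

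For the proteasome 41 of 42 slopes were positive, with a median of 0.15, and 29 of them had an unadjusted p under 0.05. Without Sed 5, 41 slopes were positive, with a median of 0.08, and 0 had an unadjusted p under 0.05 by edgeR. Psmd8 had a slope of 0.33 ± 0.08 (SE; adjusted p = 0.464 by edgeR), meaning 0.33 log2 units for each log2 unit of Fbxo32. In the ribosome biogenesis list, written after values had been seen, 54 of 62 slopes were positive (46 without Sed 5). For the respiratory chain the direction turned, as 6 of 75 slopes were positive with Sed 5 and 72 without it.

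The genes with the smallest slope p in saline rats were Nfkb2 (0.57 ± 0.09), Kcnn3 (0.68 ± 0.12), Ppp1r14c (1.26 ± 0.24), Myc (0.69 ± 0.13) and Tp53inp1 (0.62 ± 0.12), with adjusted p of 0.275 for the first and 0.288 for the others by edgeR. Without Sed 5 their slopes were 0.38, 0.26, 0.87, 0.52 and 0.51. Tp53inp1, a stress-induced regulator of autophagy, was also 4.54-fold higher in the upper monocrotaline rats (6.05, 20.0 and 54.6 CPM against 2.76, 3.74 and 10.6 CPM). The transcription factor gene Myc was 4.24-fold higher there (4.58, 25.5 and 111 CPM against 2.09, 5.75 and 14.7 CPM). Nfkb2, a subunit gene of the alternative NF-kB pathway, was level between the sets at a log2 difference of 0.03. Sets overlapped for all of these genes.

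**Figure D5:**
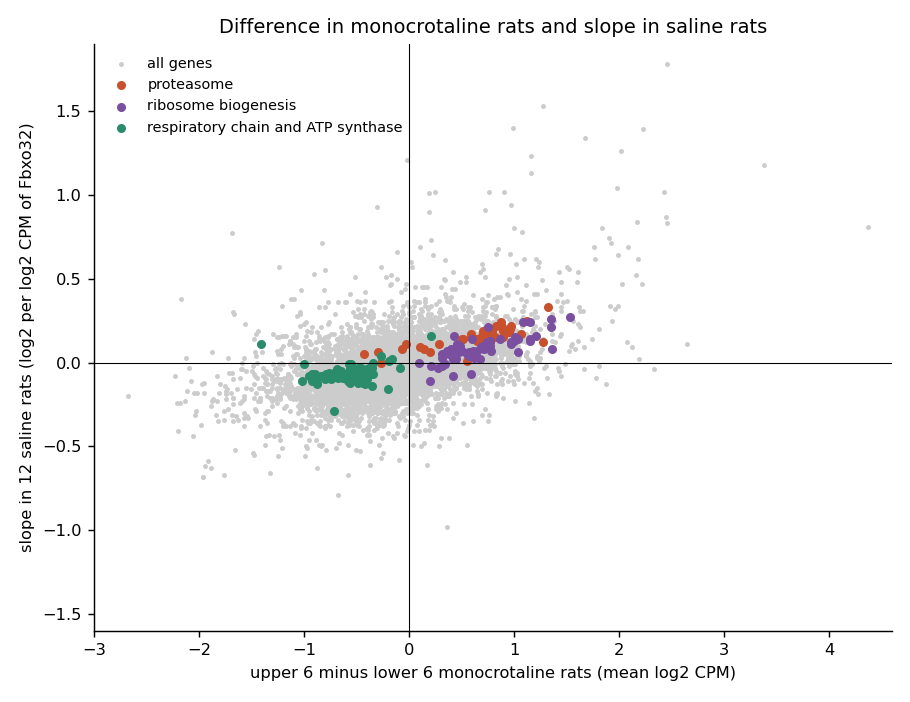
Difference between the upper and lower monocrotaline rats (horizontal, mean log2 CPM) against the slope on Fbxo32 in the 12 saline rats (vertical, log2 per log2 CPM) for 10850 genes in grey, with proteasome (orange), ribosome biogenesis (purple) and respiratory chain (green) genes. Proteasome genes lie to the upper right, with 41 of 42 slopes above 0, and respiratory chain genes to the lower left, although the latter slopes were positive in 72 of 75 genes without Sed 5.

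The numbers at the start of the library names ran from 4 to 21 in the upper rats (median 9), from 1 to 18 in the lower rats (median 4) and from 7 to 24 in the saline rats (median 16.5). What these numbers stand for is not given in the sources used here, and their part in the differences was not tested.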

How the data were processed

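RNA-seq libraries (stranded, poly-A selected) of 24 gastrocnemius muscles were analysed from the deposited table. The authors trimmed reads with Trim Galore, quantified them with Salmon on the mRatBN7.2 transcriptome and summed the estimates to genes with tximport; the submitters' notes name DESeq2 1.44.0 for testing. The deposited values are estimated counts, given as whole numbers and not scaled, and none is below 10. Depth is given with the results, and the spread between animals limited the precision.

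Groups were taken from the sample labels. In R 4.3.3 with edgeR 4.0.16, counts were scaled by TMM, and log2 CPM used a prior count of 2. The 12 monocrotaline rats were ranked by CPM of Fbxo32 and cut at 6. CC against saline was tested with a quasi-likelihood model of the 4 groups, and the slope on Fbxo32 with the 12 saline rats and training state. Standard errors were the estimate over the square root of F. Rats of a group were separate animals.

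The members and gene lists were chosen with earlier results of these data known. Named genes were the 10 with the largest difference in each direction among those with non-overlapping sets and a mean of at least 1 CPM, the 5 smallest slope p-values, and list members with large differences or a role in the pathway. List genes absent from the table were not analysed. Of 42 proteasome promoters, 38 matched RefSeq by symbol. Other scalings, DESeq2 1.42.0, filters, a replicate block, other cuts and leaving out each rat were tried. On simulated data 200 genes among 10851 were changed by 1.5 log2 units. For CC against saline edgeR recovered 196 with 8 false calls and DESeq2 198 with 26 false calls. For the slope, set at 1.5 per log2 unit of Fbxo32, edgeR recovered 196 with 4 false calls. The proteasome slopes, with a median of 0.15, were much smaller, and recovery of slopes of that size was not examined.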

Additional observations from a re-analysis of the deposited data

Results flagged for a closer look

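Of 40 sets of 6 rats examined for the 20 genes with the largest differences, 9 held a rat far from the other 5. Chance sets apart about 1 in 20 of independent sets, but these genes were chosen for their differences among the same rats and are not independent, so the count cannot be read against that rate. CC-Ex 5, the rat with the highest Fbxo32, was the rat concerned in 8 of them. On the log2 CPM scale it was high for Zfand2a at 7.53, although the other trained monocrotaline rats lay between 2.96 and 4.18, for Insig1 at 8.68 (others 4.28 to 5.54), for Pnpla7 at 9.72 (others 6.61 to 7.75), for Mindy1 at 7.16 (others 3.46 to 4.73) and for Kctd20 at 5.81 (others 2.34 to 3.54). It was low for Trim7 at -0.46 (others 2.72 to 4.44), for Oxct1 at 5.23 (others 8.05 to 9.34) and for Esr1 at -0.83 (others 1.94 to 2.60). In CC-Sed 4 Myocd was at 3.56, against -0.43 to 0.54 in the other CC-Sed rats.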

How the results depend on the processing

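The ranking of the rats was the same under each scaling tried. The 323 genes above and 146 below became 297 and 162 with DESeq2 size factors, 61 and 256 with total counts, 1733 and 997 with the upper 4 against the lower 4 rats, 1759 and 1676 within CC-Sed and 1423 and 1224 within CC-Ex, and sets of fewer rats overlap less often by construction. Leaving out 1 rat gave 328 to 652 above (652 without CC-Sed 2, 562 without CC-Ex 6) and 157 to 373 below (373 without CC-Ex 4, 336 without CC-Sed 2, 282 without CC-Ex 6, 239 without CC-Ex 3, 222 without CC-Ex 2). For CC against saline, 1866 genes higher and 1151 lower became 2060 and 1418 with DESeq2, 1324 and 1605 with upper-quartile scaling, 467 and 234 for CC-Sed against Sed alone and 95 and 13 for CC-Ex against Ex alone, and 1307 to 2237 and 890 to 1595 without 1 rat. In CC-Sed against Sed alone, the Log2FC of Myocd was 0.19 and that of Tmem65 0.01, with the direction turned; the cause was not tested. For the slope in saline rats, DESeq2 called 23 genes positive and 4 negative, and leaving out 1 rat gave 0 to 2 positive genes with edgeR (2 without Sed 2). The 609 genes at an unadjusted p under 0.05 were 271 without Sed 5. Same-numbered rats of different groups did not deviate together (mean correlation -0.0259 over 36 pairs, 13 of them over 0.1). With the replicate number as a block, 1631 genes were higher and 1141 lower in CC, and 396 genes had an unadjusted slope p under 0.05. Depth was similar in all rats, and the spread between animals limited the comparisons.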
